A study of Homo sapiens with 6 samples.

Results

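The genes described here are 33 genes of amino acid transport, serine and folate metabolism and stress signalling. They were listed by textbook role as genes of the type that the transcription factor ATF4 controls. Whether ATF4 controls each of them was not tested. SH-SY5Y, a long-established line from a human neuroblastoma, supplied the RNA, which was read on 3 arrays of cells given atrazine, a triazine herbicide, and 3 arrays of cells given the vehicle dimethyl sulfoxide (DMSO). Both groups were grown in DMEM/F12 medium with fetal bovine serum and penicillin, and neither the atrazine dose nor how long it was applied is stated in the sources used here. No label ties the numbered replicates to separate cultures, and the p-values below therefore reflect a spread between samples that may be technical. Of the 22184 probes on the array, 39 carried the symbol of a member, and 31 of these had a detection p-value (the chance of such a signal without target) under 0.05 on all 3 arrays of a group. These belonged to 26 genes, each read from its brightest probe among 11838 tested features. NUPR1, FGF21, SLC7A11, CHAC1 and VLDLR had a probe that did not pass, and ALDH18A1 and GPT2 were not analysed here. The detection p-value nearest inside the limit was 0.0438, for a second probe of CTH, and the nearest outside was 0.138, for NUPR1.

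When amino acids run short, when unfolded protein gathers in the endoplasmic reticulum or when mitochondria fail, kinases phosphorylate the translation factor eIF2, bulk protein synthesis drops and the mRNA of ATF4 is translated more. ATF4, paired with C/EBP proteins, then switches on genes that import amino acids, make asparagine, serine and proline, and feed one-carbon units from serine into folate, together with feedback regulators such as TRIB3 and secreted signals such as GDF15. Some neuroblastoma cells are known to lean on serine synthesis and mitochondrial folate enzymes during growth.

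The element that ATF4 and C/EBP proteins bind together in such genes has the core TGATGNAA. The members were listed as genes of the type that ATF4 controls. A greater share with the core than among all coding genes therefore follows in part from that choice, and the share is not separate evidence. RefSeq windows of 300 bases (GRCh38.p14; 250 before and 50 after each start site) were found for 27 of the 33 genes, and 12 of the 27 (44.4%) held the core on either strand in at least 1 window, against 571 of all 15843 coding genes with a window (3.6%). Among the 23 tested members with a window the core was in 3 of 7 genes that rose, 1 of 6 that fell and 6 of 10 that did not pass the test. A match is a description of the letters and does not show a bound site. The sites are printed 5′ to 3′ on the gene's strand with 11 bases on each side, and capitals mark the core, which reads TTGCATCA where it lies on the opposite strand.
ASNS, chr7:97872458-97872487, minus strand, core at -68 from the start site: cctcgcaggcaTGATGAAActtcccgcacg
JDP2, chr14:75427995-75428024, plus strand, core at -16: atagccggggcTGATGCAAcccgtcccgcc
SLC1A5, chr19:46784893-46784922, minus strand, core at -97: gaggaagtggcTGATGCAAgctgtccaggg
BCAT1, chr12:24949131-24949160, minus strand, core at -48: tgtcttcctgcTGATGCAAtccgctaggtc
MTHFD1L, chr6:150866346-150866375, plus strand, core at -90: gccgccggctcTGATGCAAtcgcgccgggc
ATF3, chr1:212565205-212565234, plus strand, core at -191: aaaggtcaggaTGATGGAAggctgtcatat
SLC7A1, chr13:29595663-29595692, minus strand, core at 8: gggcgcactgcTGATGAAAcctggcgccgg
SLC1A4, chr2:64989381-64989410, plus strand, core at -7: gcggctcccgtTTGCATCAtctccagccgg
GOT1, chr10:99430804-99430833, minus strand, core at -198: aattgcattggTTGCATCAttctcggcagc
CHAC1, chr15:40953251-40953280, plus strand, core at -209: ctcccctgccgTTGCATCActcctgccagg
FGF21, chr19:48755459-48755488, plus strand, core at -54: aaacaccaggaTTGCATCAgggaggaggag
SLC3A2 also held the core, near the downstream edge of its window. The 250 bases before the ASNS start site, chr7:97872409-97872658 on the minus strand, are given in full because ASNS is a much-studied ATF4 target and rose here.
ASNS promoter: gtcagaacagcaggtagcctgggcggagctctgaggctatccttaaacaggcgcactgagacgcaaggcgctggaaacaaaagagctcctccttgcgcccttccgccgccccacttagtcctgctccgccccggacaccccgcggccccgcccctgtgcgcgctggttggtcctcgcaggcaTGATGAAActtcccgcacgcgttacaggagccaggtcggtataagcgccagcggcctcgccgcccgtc

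The members split in direction under atrazine. Values below are log2 intensities after background correction and quantile normalization, and changes are atrazine minus DMSO, tested with limma and adjusted by Benjamini-Hochberg over all features at a threshold of 0.05. MTHFD1, GDF15, PSPH, ASNS and JDP2 rose by more than 2-fold (5 of 26 members, and 12.8% of all features), PCK2, PSAT1, SLC1A5 and PYCR1 rose by less, and SLC38A2, SLC7A5, BCAT1, TRIB3, ATF5 and CBS fell. SLC38A2 and SLC7A5 were the 2 that fell by 2-fold or more, as 12.7% of all features did. In all, 9 of 26 tested members rose (34.6%), where 27.6% of all features did, 6 fell (23.1%, against 39.6% of all features), and 11 did not pass. A change in either direction thus passed in 15 members, where 67.2% of all features passed. The groups did not overlap in 18 of the 26 members (69.2%, against 75.0% of all features), with atrazine higher in 10 (30.4% of all features) and lower in 8 (44.6%). The median change of the 26 genes was 0.06, against -0.18 over all features.

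The 3 atrazine arrays were dimmer than the 3 DMSO arrays (mean raw intensity 235.1 to 311.3, against 532.2 to 939.1) and had fewer probes above background (43.6% to 52.0%, against 58.9% to 59.8%), so the scaling between arrays bears on every change given here. With the arrays scaled to their medians in place of quantile normalization, the median of all features moved to -0.94, and 5 members rose and 19 fell (14.8% and 69.9% of all features). The 5 that rose in both settings were MTHFD1, GDF15, PSPH, ASNS and JDP2, a call that 13.8% of all features shared. The 6 that fell in the first setting also fell in the second, as did 36.8% of all features. PSAT1, SLC1A5 and PYCR1 passed as rises in the first and as falls in the second, which 6.85% of all features did. Atrazine replicate 2 stood apart from its group, correlating across features with atrazine replicates 1 and 3 at r = 0.968 and 0.964, where those 2 correlated at 0.994. Without it, 10 members rose and 7 fell, as did 3578 and 5093 of the 12011 features then tested.

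**Figure D1:**
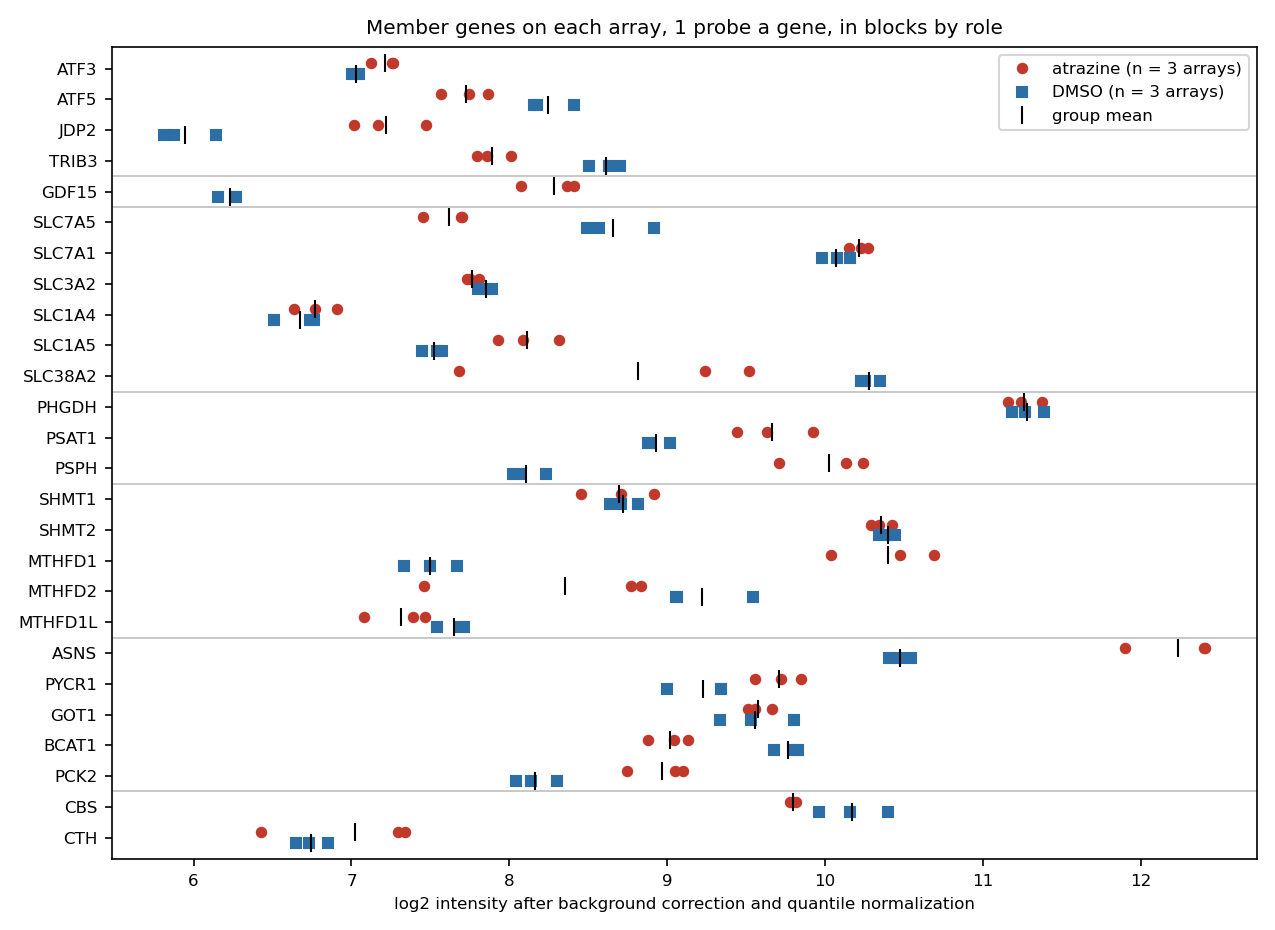
Log2 normalized intensity (horizontal axis) of the 26 tested member genes on each array, with 3 atrazine arrays as circles above 3 DMSO arrays as squares and a bar at each group mean; grey lines part the roles. MTHFD1, PSPH, ASNS, GDF15 and JDP2 have every atrazine array well above every DMSO array, and in SLC38A2, MTHFD2 and CTH atrazine replicate 2 lies apart from the other atrazine arrays.

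Among the stress transcription factors and their regulators, 1 of 4 tested genes rose and 2 fell (27.6% and 39.6% of all features). JDP2, which encodes a bZIP repressor of AP-1 sites, had values of 7.17, 7.47 and 7.01 in atrazine, against 6.14, 5.88 and 5.81 in DMSO. Every atrazine array thus lay above every DMSO array, and the change was 1.28 (SE 0.15, limma adjusted p = 2.95e-04), a 2.42-fold rise that stayed at 0.79 under median scaling. TRIB3, a pseudokinase that ATF4 induces and that restrains it in return, had 8.01, 7.86 and 7.80 in atrazine, against 8.70, 8.51 and 8.63 in DMSO. It was lower on all 3 atrazine arrays, by -0.73 (SE 0.11, limma adjusted p = 8.14e-04), and by -1.82 under median scaling. ATF5, a bZIP factor translated like ATF4 when eIF2 is phosphorylated, had 7.57, 7.86 and 7.74 in atrazine, against 8.41, 8.16 and 8.17 in DMSO. It changed by -0.52 (SE 0.12, limma adjusted p = 0.0072), and the groups did not overlap.

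ATF3, a stress-induced bZIP repressor, had 7.26, 7.12 and 7.26 in atrazine, against 7.04, 7.03 and 7.003 in DMSO. The atrazine arrays were all slightly higher, but the change of 0.19 (SE 0.09) did not pass (limma adjusted p = 0.11), while it passed in opposite directions under the other scalings. Median scaling gave -0.62 (limma adjusted p = 0.0024) and housekeeping scaling 0.42 (limma adjusted p = 0.016). A second ATF3 probe was above background on 0 of 6 arrays. NUPR1, a small chromatin protein induced by stress, was likewise not above background on any array, with normalized values of 5.27, 5.35 and 5.59 in atrazine, against 5.15, 5.06 and 5.13 in DMSO.

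Of the 2 secreted stress hormones, GDF15 rose and FGF21 was not detected. GDF15, a member of the TGF-beta family whose blood level is used as a marker of mitochondrial disease, had 8.36, 8.07 and 8.41 in atrazine, against 6.27, 6.16 and 6.26 in DMSO. The groups lay far apart, with a 4.15-fold rise (log2 change 2.05, SE 0.12, limma adjusted p = 1.53e-05). Its change was 1.34 under median scaling and 2.37 when the arrays were scaled to housekeeping genes. FGF21, a hormone of the fasting response, was above background on 0 of 6 arrays.

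In serine synthesis, which makes serine from a glycolytic intermediate, the enzymes after the first step rose and the first did not change detectably. PHGDH, which opens the pathway, had 11.24, 11.38 and 11.16 in atrazine, against 11.39, 11.18 and 11.26 in DMSO. These groups overlapped, with a change of -0.02 (SE 0.11, limma adjusted p = 0.88). PSAT1, the aminotransferase that follows, had 9.63, 9.92 and 9.44 in atrazine, against 8.89, 8.88 and 9.02 in DMSO. The groups were separate and the change was 0.74 (SE 0.14, limma adjusted p = 0.0026), but median scaling turned it to -0.47 (limma adjusted p = 0.0041). PSPH, the phosphatase that releases serine, had 10.13, 9.71 and 10.24 in atrazine, against 8.23, 8.06 and 8.02 in DMSO. This 3.79-fold rise (log2 change 1.92, SE 0.16, limma adjusted p = 5.47e-05) was 0.77 under median scaling and 1.81 under housekeeping scaling. RefSeq lists pseudogenes of PSPH, PSAT1, ASNS, MTHFD1, MTHFD2, SHMT1 and SLC7A5, and whether the probes also bind transcripts of these was not tested.

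Among the folate enzymes, which carry one-carbon units, 1 of 5 tested genes rose (27.6% of all features) and 4 did not pass. MTHFD1, the trifunctional enzyme of the cytosol (chr14:64388353-64460025, GRCh38.p14, probe ILMN_1785324), had 10.69, 10.04 and 10.48 in atrazine, against 7.67, 7.33 and 7.50 in DMSO. It was the member with the greatest change, a 7.47-fold rise (log2 change 2.90, SE 0.18, limma adjusted p = 1.98e-05). In signed order, with every fall ranked below every rise, its change was at or above those of 99.2% of all features. Its change was 1.85 under median scaling and between 2.76 and 3.08 when each array was left out. MTHFD2, a mitochondrial dehydrogenase of the same pathway and a textbook ATF4 target, had 8.84, 7.46 and 8.77 in atrazine, against 9.54, 9.05 and 9.06 in DMSO. All atrazine values were lower, and the lowest was that of replicate 2. Its change of -0.87 (SE 0.36) did not pass (limma adjusted p = 0.067), but it passed without atrazine replicate 1 (-1.11, limma adjusted p = 0.043), without replicate 2 (-0.42, limma adjusted p = 0.024) and without replicate 3 (-1.07, limma adjusted p = 0.048). It did not pass without DMSO replicate 1 (limma adjusted p = 0.20), DMSO replicate 2 (0.11) or DMSO replicate 3 (0.11).

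The other folate enzymes did not pass after quantile normalization. MTHFD1L, the mitochondrial synthetase that yields formate, had 7.47, 7.08 and 7.39 in atrazine, against 7.71, 7.69 and 7.54 in DMSO. The groups were apart, and the change of -0.34 (SE 0.13) just missed the threshold (limma adjusted p = 0.052), which it passed without atrazine replicate 1 (-0.41, limma adjusted p = 0.042), with an offset of 50 (-0.28, limma adjusted p = 0.048) and in the authors' processed intensities (-0.27, limma adjusted p = 0.047). SHMT1 and SHMT2, the cytosolic and mitochondrial enzymes that move a carbon from serine to folate, changed by -0.03 (SE 0.14) and -0.05 (SE 0.09). Their groups overlapped, and neither passed (limma adjusted p = 0.87 and 0.66). Under median scaling both were lower, by -1.19 and -1.23, against the median of -0.94 over all features in that setting.

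The amino acid transporters split, with 1 rise and 2 falls among 6 tested genes (27.6% and 39.6% of all features). SLC1A5, which exchanges glutamine and other neutral amino acids, had 8.31, 7.92 and 8.09 in atrazine, against 7.45, 7.54 and 7.57 in DMSO. It rose on every atrazine array, by 0.59 (SE 0.12, limma adjusted p = 0.0042), but was -0.43 under median scaling (limma adjusted p = 0.035). SLC7A5, the large neutral amino acid transporter LAT1, had 7.69, 7.70 and 7.45 in atrazine, against 8.92, 8.49 and 8.57 in DMSO. The groups were well separated, at -1.04 (SE 0.14, limma adjusted p = 5.99e-04). SLC3A2, the heavy chain with which SLC7A5 and SLC7A11 pair at the membrane, had 7.73, 7.81 and 7.75 in atrazine, against 7.89, 7.80 and 7.86 in DMSO. Here the groups overlapped, and the change was -0.09 (SE 0.09, limma adjusted p = 0.41).

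SLC38A2, the sodium-coupled transporter SNAT2 that cells raise when starved of amino acids, had 9.52, 7.68 and 9.24 in atrazine, against 10.23, 10.35 and 10.25 in DMSO. All 3 atrazine arrays were lower, and atrazine replicate 2 was lower than the others by more than the other pair's spread. The change was -1.46 (SE 0.43, limma adjusted p = 0.019), and -0.90 without atrazine replicate 2 (limma adjusted p = 3.03e-05). It no longer passed without DMSO replicate 1 (limma adjusted p = 0.060), DMSO replicate 2 (0.060) or DMSO replicate 3 (0.052). SLC7A1, the arginine and lysine transporter CAT1, changed by 0.14 (SE 0.10) and SLC1A4, a neutral amino acid exchanger, by 0.10 (SE 0.12), and neither passed (limma adjusted p = 0.22 and 0.48). SLC1A4 passed in opposite directions under the other scalings, at -0.53 with median scaling (limma adjusted p = 0.0016) and 0.51 with housekeeping scaling (limma adjusted p = 0.011). SLC7A11, the cystine and glutamate exchanger, was above background on 0 of 6 arrays.

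Among enzymes of other amino acids, 3 of 5 tested genes rose and 1 fell (27.6% and 39.6% of all features). ASNS, which makes asparagine and is the classic readout of amino acid shortage (chr7:97851677-97928441, GRCh38.p14, probe ILMN_1796417), had 12.40, 11.90 and 12.41 in atrazine, against 10.54, 10.41 and 10.47 in DMSO. Every atrazine array was higher, a 3.39-fold rise (log2 change 1.76, SE 0.15, limma adjusted p = 7.48e-05), and the change was 0.77 under median scaling (limma adjusted p = 0.010). PCK2, the mitochondrial enzyme that makes phosphoenolpyruvate, had 9.10, 8.74 and 9.05 in atrazine, against 8.04, 8.30 and 8.13 in DMSO. It rose by 0.80 (SE 0.13, limma adjusted p = 0.0013), but median scaling gave -0.34 (limma adjusted p = 0.14, not past the threshold). PYCR1, the mitochondrial reductase that completes proline synthesis, had 9.72, 9.84 and 9.55 in atrazine, against 9.34, 8.996 and 9.34 in DMSO. The groups were apart, at 0.48 (SE 0.14, limma adjusted p = 0.016), but the call was lost without DMSO replicate 2 (0.37, limma adjusted p = 0.052) and under housekeeping scaling (0.29, limma adjusted p = 0.10), and median scaling gave -0.75 (limma adjusted p = 2.33e-04).

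BCAT1, the cytosolic aminotransferase of branched-chain amino acids, had 9.13, 8.88 and 9.04 in atrazine, against 9.67, 9.83 and 9.80 in DMSO. It fell on all 3 atrazine arrays, by -0.75 (SE 0.11, limma adjusted p = 7.32e-04). Its promoter window holds the core TGATGCAA, as those of JDP2 and SLC1A5 do. GOT1, the cytosolic aspartate aminotransferase, had 9.56, 9.51 and 9.66 in atrazine, against 9.33, 9.80 and 9.53 in DMSO. Its groups overlapped, and the change of 0.02 (SE 0.14) did not pass (limma adjusted p = 0.90).

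In transsulfuration, which turns homocysteine into cysteine, CBS fell slightly and CTH varied between atrazine arrays. CBS, the first enzyme, had 9.78, 9.81 and 9.80 in atrazine, against 10.40, 9.96 and 10.16 in DMSO. The atrazine arrays were nearly equal and all lower, by -0.37 (SE 0.13, limma adjusted p = 0.033). That call was lost without atrazine replicate 1 (limma adjusted p = 0.080), atrazine replicate 3 (0.068), DMSO replicate 1 (0.087) or DMSO replicate 3 (0.083). CTH, which releases the cysteine, had 7.30, 6.43 and 7.34 in atrazine, against 6.65, 6.85 and 6.73 in DMSO. Replicates 1 and 3 lay above and replicate 2 below all DMSO arrays, so the change of 0.28 (SE 0.24) did not pass (limma adjusted p = 0.33), while without atrazine replicate 2 it was 0.57 and did (limma adjusted p = 5.17e-04). CTH also passed under housekeeping scaling (0.64, limma adjusted p = 0.0072), and the mean of its detected probes gave 0.056 (limma adjusted p = 0.74). CHAC1, which degrades glutathione and is a sensitive ATF4 and CHOP target, was above background on 0 of 6 arrays. VLDLR, a lipoprotein receptor that ATF4 induces, was not above background on any array either.

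**Figure D2:**
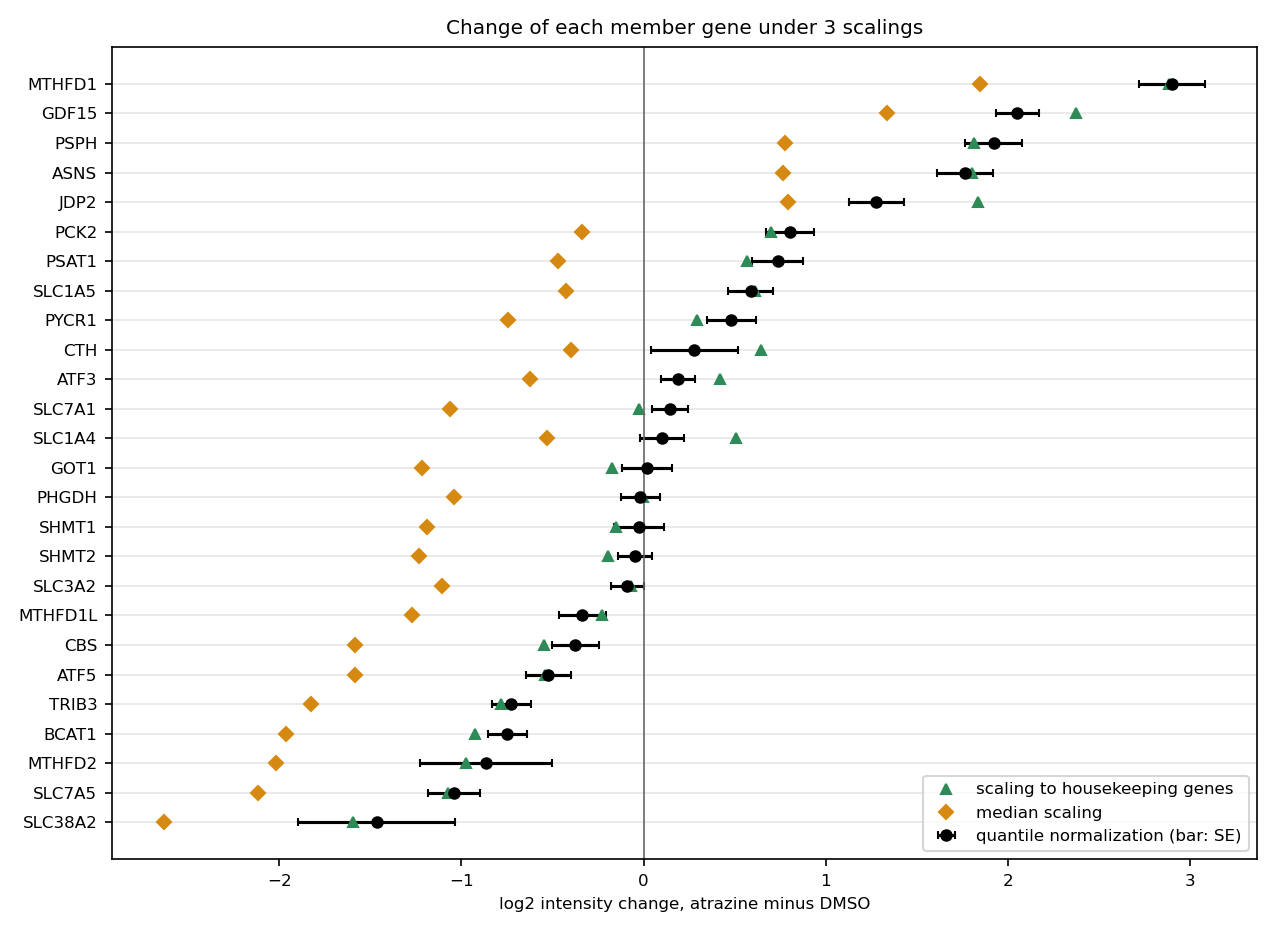
Log2 change, atrazine minus DMSO (horizontal axis), of the 26 member genes under quantile normalization (black, with the standard error), housekeeping scaling (triangles) and median scaling (diamonds). MTHFD1, GDF15, PSPH, ASNS and JDP2 lie right of 0 under all 3 scalings, SLC38A2, SLC7A5, BCAT1, TRIB3, ATF5 and CBS lie left of it, and between them 9 members (PCK2, PSAT1, SLC1A5, PYCR1, CTH, ATF3, SLC7A1, SLC1A4 and GOT1) lie right of 0 under quantile normalization and left of it under median scaling.

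Each member was also set against the rest of the array. Relative to the median of all features in each scaling, MTHFD1 stood at 3.08 after quantile normalization and 2.78 after median scaling, GDF15 at 2.23 and 2.27, PSPH at 2.10 and 1.71, ASNS at 1.94 and 1.70, and JDP2 at 1.46 and 1.73. PSAT1 stood at 0.91 and 0.47, and SLC1A5 at 0.77 and 0.51, so both lay above that median in both scalings although their own sign turned. At the other end SLC38A2 stood at -1.28 and -1.70, SLC7A5 at -0.86 and -1.18, MTHFD2 at -0.69 and -1.08, BCAT1 at -0.57 and -1.02, and TRIB3 at -0.55 and -0.89. For the 26 genes as a list the median lay 0.24 above that of all features in the first scaling and changed by -0.12 relative to it in the second.

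Second probes passed the detection rule for 5 members and are separate readings of the gene on the same RNA, not replicates. PCK2 had a second probe, annotated to another transcript variant (NM_001018073), with 7.20, 7.55 and 7.50 in atrazine, against 6.37, 6.40 and 6.49 in DMSO. It too was higher on every atrazine array, by 0.99 (SE 0.12, limma adjusted p = 3.34e-04), where 67.3% of all probes passed. Both detected PCK2 probes thus rose after quantile normalization. Under median scaling neither passed, with 0.31 for the second probe (limma adjusted p = 0.0503) and -0.34 for the first (0.135). Another PCK2 probe, annotated to the same variant as the second, was above background on 0 of 6 arrays, as was a second PSAT1 probe. The second probe of PYCR1 gave 0.16 (SE 0.11, limma adjusted p = 0.25), which did not repeat the rise of the first. Those of SLC3A2 (0.04), SHMT1 (0.03) and CTH (-0.17) did not pass (limma adjusted p = 0.88, 0.83 and 0.15), and those of SHMT1 and CTH were above background on 0 of 3 atrazine arrays. MTHFD1, GDF15, PSPH, ASNS and JDP2 each had 1 probe on the array, so their rises rest on a single reading.

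**Figure D3:**
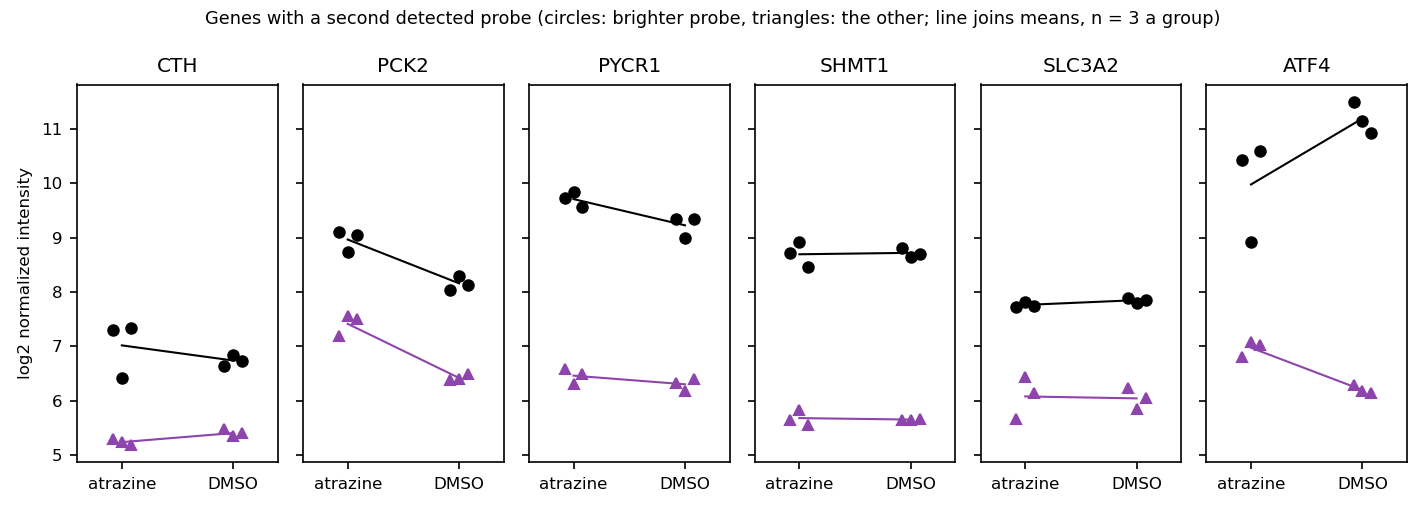
Log2 normalized intensity (vertical axis) of genes with a second detected probe, atrazine left and DMSO right, 3 arrays each; circles are the brighter probe, triangles the other, and lines join the group means. Both detected PCK2 probes are higher in atrazine, and the ATF4 probes run in opposite directions.

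Upstream of the members, of 21 tested genes of stress sensing and core factors, 2 passed as rises (9.52%, against 27.6% of all features) and 9 as falls (42.9%, against 39.6%). Median scaling gave 1 and 20 (14.8% and 69.9% of all features). After quantile normalization the median change was -0.24, against -0.18 over all features. The kinase genes EIF2AK2 (PKR), EIF2AK3 (PERK) and EIF2AK4 (GCN2) fell by 0.91, 1.00 and 0.78 on the log2 scale (limma adjusted p = 0.011, 0.0023 and 0.017), while EIF2AK1 (HRI) gave -0.23 (0.20). EIF2AK3 was above background on 2 of 3 atrazine arrays and lost its call under housekeeping scaling (-0.08, limma adjusted p = 0.63). EIF2AK4 no longer passed without DMSO replicate 1 (limma adjusted p = 0.070) or DMSO replicate 2 (0.052). DELE1 and OMA1, which relay mitochondrial damage to HRI, fell by 0.79 and 0.63 (limma adjusted p = 2.93e-04 and 0.0019).

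ATF4 itself could not be given a direction. Its brighter probe had 10.43, 8.91 and 10.58 in atrazine, against 11.50, 11.15 and 10.92 in DMSO, and the other had 6.81, 7.09 and 7.03 in atrazine, against 6.28, 6.18 and 6.14 in DMSO. The first was lower on every atrazine array (-1.21, SE 0.42, limma adjusted p = 0.036) and the second higher on every one (0.78, limma adjusted p = 7.10e-04). Under median scaling the first stayed lower (-2.31, limma adjusted p = 0.0015), and the second did not pass (0.24, limma adjusted p = 0.098). The change of the first was -0.68 without atrazine replicate 2, and did not pass without DMSO replicate 1 (limma adjusted p = 0.12), DMSO replicate 2 (0.085) or DMSO replicate 3 (0.059). Since ATF4 is controlled mainly through translation, the mRNA level does not measure the protein.

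Among the partners of ATF4, CEBPB, a C/EBP factor of stress and cytokine responses, averaged 13.84 ± 0.09 in atrazine and 8.52 ± 0.49 in DMSO (SD, n = 3 each; log2 change 5.32, limma adjusted p = 4.56e-06). CEBPG, the C/EBP partner that ATF4 uses at amino acid genes, gave -0.24 (limma adjusted p = 0.053), with every atrazine array below every DMSO array. CEBPG passed under median scaling (-1.48, limma adjusted p = 2.78e-05), housekeeping scaling (-0.44, 0.014) and in the authors' processed intensities (-0.23, 0.034). It did not pass whichever array was left out (limma adjusted p = 0.059 to 0.15). DDIT3, which encodes CHOP, gave 0.35 (limma adjusted p = 0.033), lost without atrazine replicate 3 (0.078), DMSO replicate 2 (0.11) or DMSO replicate 3 (0.076), and -0.54 under median scaling (0.0031).

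The neighbouring pathway lists held more falls than rises, as did all features (27.6% higher and 39.6% lower, or 14.8% and 69.9% under median scaling). Of 18 other amino acid transporters tested, 5 were higher (27.8%) and 9 lower (50%) past the threshold (3 and 12 under median scaling), and their median was -0.66. SLC7A14, a lysosomal relative of the cationic transporters, rose by 1.78 (limma adjusted p = 1.52e-05), and SLC43A2 and SLC38A7, which carry neutral amino acids, were above background on 0 of 3 atrazine arrays and were at least 1.98- and 1.56-fold lower. SLC38A7 lost its call under housekeeping scaling (-0.21, limma adjusted p = 0.32). In the folate and methionine cycles, 1 of 19 tested genes was higher and 9 were lower past the threshold (with median scaling 2 and 17), for a median of -0.51. The one rise was that of FOLR1, a folate receptor (1.92, limma adjusted p = 5.24e-05), while SLC19A1, the reduced folate carrier, changed by -0.86 and MTRR, which reactivates methionine synthase, by -1.68. MTRR was above background on 2 of 3 atrazine arrays.

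Of 12 other enzymes of glutamate, proline, aspartate and branched-chain amino acids, 2 were higher (16.7%) and 4 lower (33.3%) past the threshold, for a median of 0.13. Of all features, 27.6% were higher and 39.6% lower. Median scaling gave 0 and 11 of the 12, against 14.8% and 69.9% of all features. BCKDHA, of the branched-chain keto acid dehydrogenase, rose by 0.55 but gave -0.66 under median scaling, and ARG2, mitochondrial arginase, and ALDH4A1, of proline breakdown, changed by -1.02 and -0.93. ARG2 was above background on 1 of 3 atrazine arrays and ALDH4A1 on 2, and ARG2 lost its call under housekeeping scaling (-0.32, limma adjusted p = 0.10). Of 9 genes of glutathione synthesis and breakdown, 0 rose and 2 fell (22.2%, against 39.6% of all features) at the limma threshold. Median scaling gave 0 and 8, and the median change after quantile normalization was -0.09. The 2 that fell were TST, a sulfur transferase (-0.82), and GCLC, the rate-limiting enzyme of glutathione synthesis (-1.23). GCLC was above background on 2 of 3 atrazine arrays, while MPST gave 0.27 and did not pass.

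**Figure D4:**
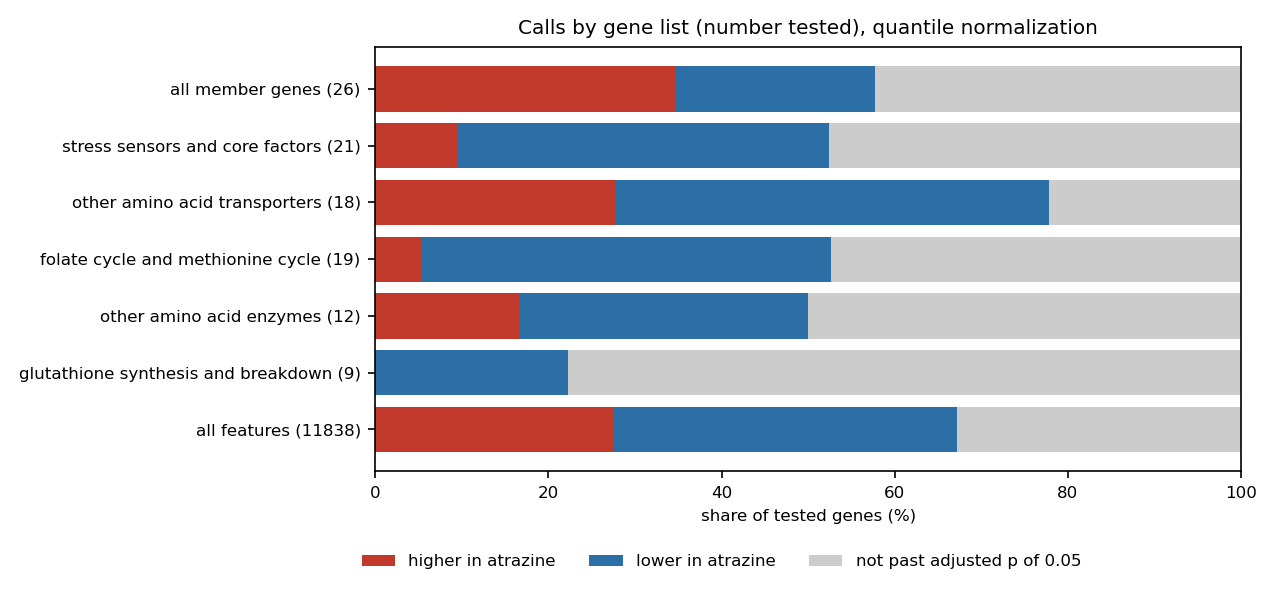
Share of tested genes (horizontal axis, %) that were higher in atrazine, lower in atrazine or not past an adjusted p of 0.05, for the 26 members, 5 neighbouring pathway lists and all 11838 features, with the number tested in brackets. The members have 9 rises and 6 falls, while the 5 lists and all features (3264 rises and 4687 falls) have more falls than rises; the difference was not tested, and under median scaling the members have 5 rises and 19 falls.

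Lineage markers moved with the groups as well. Of 10 noradrenergic neuroblastoma markers tested, 1 rose and 7 fell, and of 8 mesenchymal or fibroblast markers tested, 3 rose and 2 fell, where 27.6% of all features rose and 39.6% fell. Of the 11 noradrenergic markers with a probe, 10 were above background on all 6 arrays, and their summed normalized intensity was 32766 to 33846 in atrazine and 49577 to 54947 in DMSO. HAND2 was above background on 0 of 6 arrays. STMN2, the brightest of the 11 (mean log2 intensity 14.05 in atrazine and 14.41 in DMSO), weighed most in the sums. The 11 mesenchymal or fibroblast markers summed to 3584 to 4443 in atrazine and 1673 to 1889 in DMSO, with 4 above background on all 6 arrays and COL3A1, FN1 and YAP1 on none. VIM was the brightest of them and weighed most in the sums. It averaged 11.59 ± 0.28 in atrazine and 9.99 ± 0.15 in DMSO on the log2 scale (SD, n = 3 each). SNAI2 and COL1A2 passed as falls but were above background on 0 of 3 atrazine arrays. SNAI2 was at least 1.32-fold lower. For COL1A2 no bound could be given, and it did not pass under median scaling (-0.36, limma adjusted p = 0.17). Epithelial markers, with 1 of 5 above background on all 6 arrays, summed to 285 to 311 in atrazine and 238 to 263 in DMSO. Among them KRT18 rose (1.13, limma adjusted p = 3.88e-04). KRT8 passed as a fall (limma adjusted p = 0.0010) but was above background on 0 of 3 atrazine arrays, and no bound could be given. It did not pass under median scaling (limma adjusted p = 0.11). EPCAM did not pass, and CDH1 and KRT19 were not tested. Hepatocyte markers, of which SERPINA1 was the one above background, summed to 279.9 to 354 in atrazine and 143 to 156 in DMSO. Leukocyte markers, with 0 of 5 above background on all 6 arrays, summed to 215 to 239 in atrazine and 174 to 182 in DMSO. Of the leukocyte markers, PTPRC was above background on 3 of 3 atrazine and 0 of 3 DMSO arrays and was at least 1.575-fold higher. LYZ was above background on 2 of 3 atrazine arrays and no DMSO array, and CD68 on 2 of 3 DMSO arrays and no atrazine array. The 3 glial markers with a probe were above background on no array. In bulk samples fewer cells of a type and less RNA per cell cannot be told apart, and the part of these differences, and of the dimmer arrays, in the changes of the members was not tested.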

How the data were processed

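Expression was measured on 6 Illumina bead arrays of SH-SY5Y RNA, 3 from atrazine-treated and 3 from DMSO-treated cells, grouped by sample title. Per the file headers, the authors deposited the raw intensity of 22184 probes and, beside each, its detection p-value. A deposited table of processed intensity values, quantile normalized on the linear scale as its identical sorted values show, served as an alternative. Scanner software and chip are not given in the sources used here. For arrays, their number limits the precision.

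For background, normexp was fitted with negative controls inferred through the detection p-values (offset 16), and quantile normalization followed, with values on the log2 scale (neqc; R 4.3.3, limma 3.58.1). The platform annotation gave 1 gene symbol for 19715 probes, several for 0 and none for 2469, and 19695 were linked to a current gene through the gene ID. A gene's value came from its probe with the highest mean over all 6 arrays. Features entered the test if either group had detection p-values under 0.05 on each of its 3 arrays. Tests used lmFit and eBayes of limma, two-sided, with Benjamini-Hochberg adjustment over all 11838 features at a threshold of 0.05. The further probes of a gene were tested in the same way with every probe as its own feature. Where no array of a group read a gene above background, its fold is given as a bound ("at least"). This is the mean of the brighter group over, for each dim array, its lowest detected value or the probe's own, whichever is higher. Plain log2 changes were also given for the second probes of SHMT1 and CTH, SLC38A7 under housekeeping scaling and COL1A2 under median scaling. Those changes rest on atrazine values that were not above background. The limma step alone was tested on simulated log2 values with known changes and the spread of the DMSO arrays. Background correction, normalization and the difference in array brightness were not part of that simulation.

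The member genes and the pathway lists were chosen with earlier results of these data known. All members are named whatever their values, as are ATF4, DDIT3, CEBPB, CEBPG and the eIF2 kinases, and in each pathway list the 3 tested genes of smallest p. Alternatives were other background corrections and offsets, median and housekeeping scaling (11 genes), the authors' processed values, other detection filters, other uses of a gene's probes, an intensity trend with robust estimation, the replicate number as a block, and leaving out each array. Same-numbered arrays of the 2 groups did not deviate together (r = -0.18, -0.45 and -0.29), so the numbers were not used as pairs.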

Additional observations from a re-analysis of the deposited data

How the results depend on the processing

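Of the 26 member genes, every one kept its direction and its side of the threshold with no background correction, without the detection filter, with every probe as its own feature and with an intensity trend and robust estimation, and so did the 20 that were left with detection p under 0.01 on all 6 arrays. Median scaling had the largest effect. The members counted 5 rises and 19 falls (9 and 6 after quantile normalization), and all features 1748 rises and 8278 falls (3264 and 4687). It turned ATF3 (-0.62), SLC7A1 (-1.06), SLC1A4 (-0.53), SLC1A5 (-0.43), PSAT1 (-0.47), PYCR1 (-0.75), GOT1 (-1.21), PCK2 (-0.34) and CTH (-0.40), and outside the members DDIT3 (-0.54), BCKDHA (-0.66) and MPST (-0.74). Rises made up 41.1% of all calls after quantile normalization, 17.4% after median scaling, 58.2% after housekeeping scaling (11 members higher and 7 lower) and 51.8% with detection p under 0.01 on all 6 arrays (1967 rises and 1828 falls, with fewer features tested). Housekeeping scaling turned SLC7A1 (-0.024) and GOT1 (-0.18), which had not passed, and ATF3, SLC1A4, MTHFD2 and CTH passed under it. MTHFD1L passed with an offset of 50 and in the authors' processed intensities. Averaging the detected probes of each gene moved SHMT1 to 0.00011. With 1 array left out, the members counted 8 to 10 rises and 4 to 7 falls, and all features 2835 to 3578 rises and 3927 to 5093 falls. Over these, PHGDH ran from -0.078 to 0.036, SHMT1 from -0.14 to 0.094 and GOT1 from -0.091 to 0.14, and none of the 3 passed. With the replicate number as a block, 8 members were higher and 6 lower, and of all features 2863 were higher and 4007 lower. PYCR1 and CBS lost their calls (limma adjusted p = 0.052 and 0.072), as did DDIT3 (0.096), and MTHFD2 passed (0.035), but the labels do not say that the numbers pair the arrays. The cause of these differences was not tested.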
